A study of Homo sapiens with 6 samples.

Results

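ATF4 is a transcription factor whose protein is made when the initiation factor eIF2alpha is phosphorylated and general translation slows, the integrated stress response. The kinases that phosphorylate eIF2alpha sense amino acid shortage, heme shortage, unfolded protein in the endoplasmic reticulum and double-stranded RNA. ATF4 binds DNA together with C/EBP family partners and is known for raising the transcripts of enzymes that make amino acids, of carriers that import them, and of regulators that later damp the response. The genes described here are 36 such genes: ATF4 itself, its partners and feedback genes, and the synthesis and transport genes it is known to act on. They were chosen by gene name and found by summing the transcripts that GENCODE release 44 assigns to each name. All 36 are among the 62252 genes in the data and among the 26074 genes tested.

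The study asked how the transcriptome of K562 cells, an erythroid leukemia cell line grown in RPMI medium with serum, responds when iron is taken away. DMSO cultures received the solvent only, and Chelator cultures received 10 µM 21H7, a cell-permeable iron chelator, both overnight. There were 3 biological replicates of each, and polyA RNA was sequenced as paired reads. All 6 samples are of 1 cell line with 1 compound at 1 dose and 1 time, so 21H7 cannot be told apart from iron loss as such, and a bulk library does not tell a change in every cell from a change in the share of cells expressing a gene.

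The libraries held 78615500 to 101094957 estimated counts each. Of the erythroid factors, GATA1 was at 151 to 178 TPM over the 6 libraries, TAL1 at 48.7 to 61.7 TPM in DMSO and 42.9 to 46.1 TPM in Chelator, and KLF1 at 77.8 to 87.4 and 47.7 to 52.9 TPM. TAL1 and KLF1 fell, with log2 fold changes of -0.28 ± 0.072 (SE, adjusted p = 3.84e-04) and -0.72 ± 0.070 (SE, adjusted p = 4.59e-23), and the part of this in the results was not tested. In contrast, MS4A1, CD14, CDH1, DCN and CD3E, markers of other lineages, all stayed under 1 TPM, and CD3D, LYZ and EPCAM were detected at about 10 TPM or more. Of the 10 markers of other cells, CD3D was at 10.0 to 16.2 TPM in DMSO and 38.9 to 40.7 TPM in Chelator and COL1A1 at 0.502 to 0.646 and 1.65 to 2.10 TPM, and their part in the results was not tested. Levels are given as TPM, the abundance of a gene's transcripts after correction for their length and scaling to the same total in each library, so that genes can be compared. The median difference between a transcript's length and its effective length ran from 252 to 264 bases in DMSO and from 200 to 218 in Chelator, so the groups did not overlap in it. Its part in the results was not tested beyond refits with and without the length term and a removal of length and GC content trends. DMSO replicate 2 stood apart from the other controls and Chelator replicate 1, by less, from the other Chelator libraries. DMSO replicate 2 held the highest control TPM for 30 of the 36 genes, and Chelator replicate 1 the highest Chelator TPM for 20.

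As a group, the listed genes were higher after iron chelation. Their summed level was 2787, 3133 and 2811 TPM in the DMSO libraries and 4489, 4424 and 4466 TPM in the Chelator libraries. A gene was called when the DESeq2 Wald test gave it an adjusted p below 0.05 with a log2 fold change beyond 1 in size, and by this rule 14 of 36 (38.9%) were called higher and 0 lower. Of all 24542 genes with an adjusted p, 8.18% were called higher and 2.60% lower. At an adjusted p under 0.05 and any fold, 27 listed genes rose, 4 fell and 5 did not pass, against 19.5% of all genes that rose and 18.3% that fell. The same 27 genes had every Chelator library above every DMSO library in normalized counts, and the same 4 had every one below (25.5% and 23.7% of all genes). The median log2 fold change was 0.81 over the listed genes and 0.016 over all genes. All 7 transcription factors and all 5 feedback and effector genes rose, while the biosynthetic enzymes and carriers split into genes that rose, genes that did not pass and genes that fell.

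**Figure D1:**
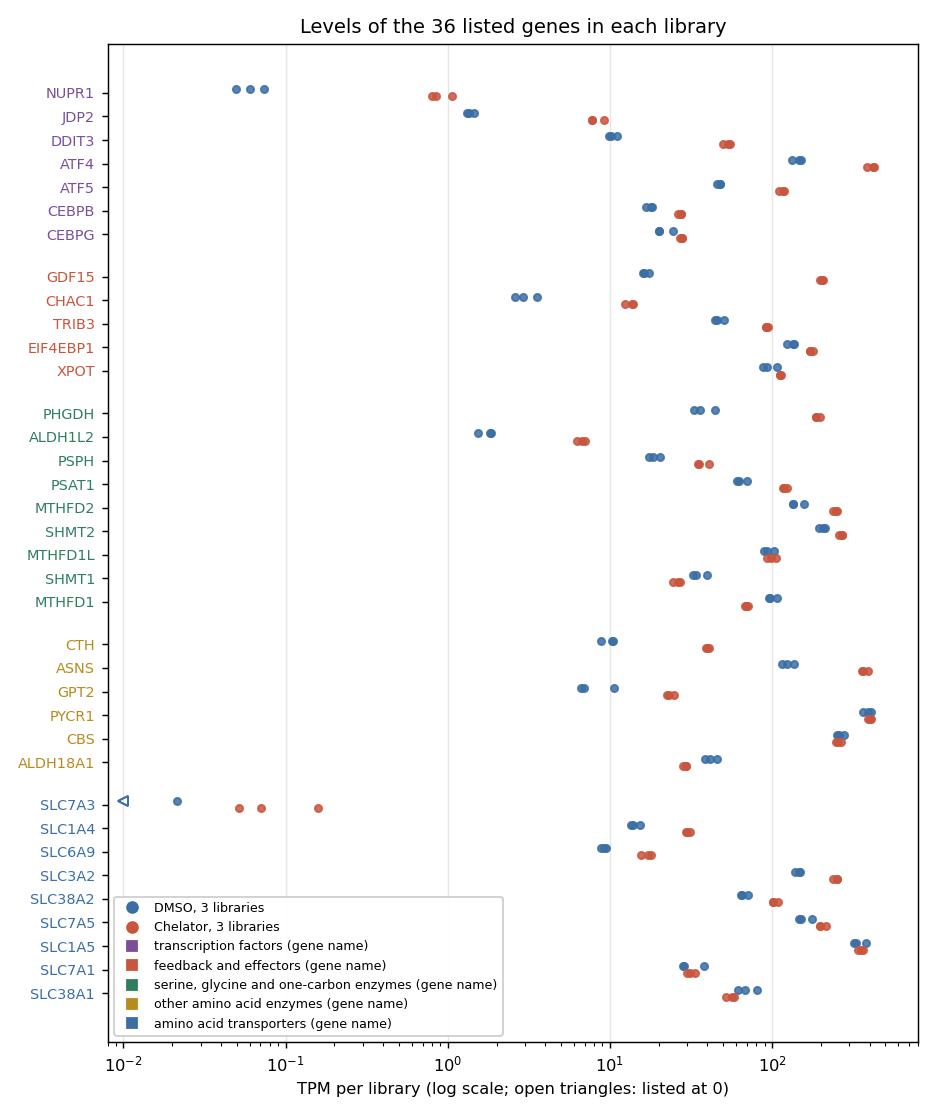
TPM of each of the 36 genes in each library on a log axis, with 3 DMSO libraries in blue and 3 Chelator libraries in red and the gene names colored by role. The levels run from SLC7A3, listed at 0 in 2 DMSO libraries, to ATF4 in Chelator and PYCR1 in both groups near 400 TPM, and the 3 points of a group lie close together for most genes.

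Replicates lay close together. Over the 34 listed genes with a DMSO mean of at least 100 normalized counts, the median coefficient of variation was 5.20% in DMSO and 5.11% in Chelator, and the largest were 17.4% and 10.6%.

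The DNA next to the start sites of these genes was searched for the core of the composite element that C/EBP and ATF4 bind, TGATGNAA on either strand. RefSeq promoter windows (GRCh38.p14, 250 bases before to 50 bases after the start) were at hand for 28 of the 36 genes. The motif was in at least 1 window of 10 of them (35.7%), against 4.46% of 27305 genes with a window. By window, it was in 24% of the 50 windows of listed genes and in 3.62% of all 35116. Its variant TGATGCAA was in 6 (21.4%), against 1.08% of all. In 8 of the 10 it begins before the start, and those stretches follow with the motif in capitals, since these are the letters ATF4 partners are known to read. A motif read from the opposite strand appears as its reverse complement.
ASNS, chr7:97872443-97872502, - strand: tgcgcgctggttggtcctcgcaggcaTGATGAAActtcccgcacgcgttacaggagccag
CHAC1, chr15:40953236-40953295, + strand: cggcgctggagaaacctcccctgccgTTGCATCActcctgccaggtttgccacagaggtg
JDP2, chr14:75427980-75428021, + strand: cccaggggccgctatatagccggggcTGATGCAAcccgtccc
SLC1A4, chr2:64989366-64989399, + strand: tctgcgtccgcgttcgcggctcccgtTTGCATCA
CEBPG, chr19:33374045-33374104, + strand: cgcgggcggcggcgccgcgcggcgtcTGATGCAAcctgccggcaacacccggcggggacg
SLC1A5, chr19:46784878-46784937, - strand: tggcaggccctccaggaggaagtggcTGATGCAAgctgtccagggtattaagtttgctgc
MTHFD1L, chr6:150866331-150866390, + strand: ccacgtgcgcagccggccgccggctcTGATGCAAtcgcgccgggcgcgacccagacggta
SLC38A1, chr12:46266513-46266546, - strand: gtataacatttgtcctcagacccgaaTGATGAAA
Counted from the start site, the first base of the match is at -68 in ASNS, -209 in CHAC1, -16 in JDP2, -7 in SLC1A4, -42 in CEBPG, -97 in SLC1A5 and -4 in SLC38A1. In MTHFD1L it is at -129 or -90, counted from 2 annotated starts. Of the 4 windows of MTHFD1L 3 hold the motif, the last of these only after its start. The matches of SLC1A4 and SLC38A1 run onto the start. In SLC3A2 and SLC7A1 the match lies after it. Beside the expression change, 4 of the 10 with the motif were called higher, 1 fell and 3 did not pass, and of the 18 without it 6 were called higher, 3 fell and 1 did not pass. The median log2 fold change was 0.54 with the motif and 0.81 without. A match of letters is not a bound site, and intronic or distal elements were outside these windows. The listed genes were chosen as genes ATF4 is known to act on, so a share above that of all genes is no independent support.

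The transcription factors rose together, 7 of 7, and 5 were called. ATF4 transcript was already abundant in DMSO, and it measured 147, 152 and 133 TPM in DMSO and 388, 423 and 419.7 TPM in Chelator. Every Chelator library lay above every control, and the log2 fold change was 1.48 ± 0.074 (SE, adjusted p = 1.30e-85). The locus is chr22:39519695-39522683 on the plus strand (hg38, GENCODE release 44, as for every locus here). Since ATF4 protein is set mainly by translation of its mRNA, this level says nothing of the protein. DDIT3, also called CHOP, a C/EBP family protein that ATF4 induces and that promotes cell death under lasting stress, stood lower than ATF4 at 11.0, 10.1 and 9.84 TPM in DMSO and 49.7, 54.8 and 53.6 TPM in Chelator. It changed more, with a log2 fold change of 2.32 ± 0.11 (SE, adjusted p = 1.28e-96). DDIT3 lies at chr12:57516588-57521737 on the minus strand and overlaps MARS1 on the other strand, with 23.7% of its 31-base sequences shared with that gene. MARS1 had a log2 fold change of 0.97 ± 0.11, and 0.17 when transcript length was left out of the fit. For DDIT3 that fit gave 2.40. ATF5 (chr19:49928702-49933935), an ATF4 relative linked to mitochondrial stress, was at 47.5, 47.7 and 46.1 TPM in DMSO and 119, 116 and 110.0 TPM in Chelator, and its log2 fold change was 1.26 ± 0.084 (SE, adjusted p = 4.91e-48). It shares 16.5% of its sequences with NUP62 on the opposite strand, which moved the other way (log2 fold change -0.41). Whether the authors' counting used strand is not given in the sources used here, so reads of such pairs may have been split between them. Shared sequence was also above 20% for SLC1A5 (22.9%), MTHFD2 (22.5%) and ASNS (48.6%), and ATF4 shares 18.2% with the pseudogene ATF4P3, which was given 2 to 14 counts per library.

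JDP2 and NUPR1, both scarce, had the largest log2 fold changes among the factors, an order that held only with transcript length in the fit. JDP2 (chr14:75427716-75474111) encodes a partner of AP-1 and ATF proteins and was at 1.32, 1.45 and 1.36 TPM in DMSO and 7.71, 7.79 and 9.24 TPM in Chelator. No library of one group reached the other, and the log2 fold change was 2.55 ± 0.15 (SE, adjusted p = 1.92e-64), but 1.86 when transcript length was left out of the fit. NUPR1 (chr16:28532708-28539008), a small stress-induced chromatin protein, was at 0.0494, 0.0731 and 0.0605 TPM in DMSO and 0.796, 0.846 and 1.06 TPM in Chelator, on only 20, 25 and 21 counts in DMSO and 68, 93 and 109 in Chelator. Its log2 fold change was 3.86 ± 0.34 (SE, adjusted p = 2.25e-28), but 1.81 without transcript length, and the effective length of its transcripts averaged 5015 bases in DMSO but 1210.5 in Chelator. The C/EBP partners CEBPB and CEBPG rose by less, with log2 fold changes of 0.58 ± 0.086 (SE, adjusted p = 1.68e-10) and 0.34 ± 0.070 (SE, adjusted p = 9.56e-06). Neither was called, and CEBPG no longer passed at 0.16 when only protein-coding transcripts were summed.

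**Figure D2:**
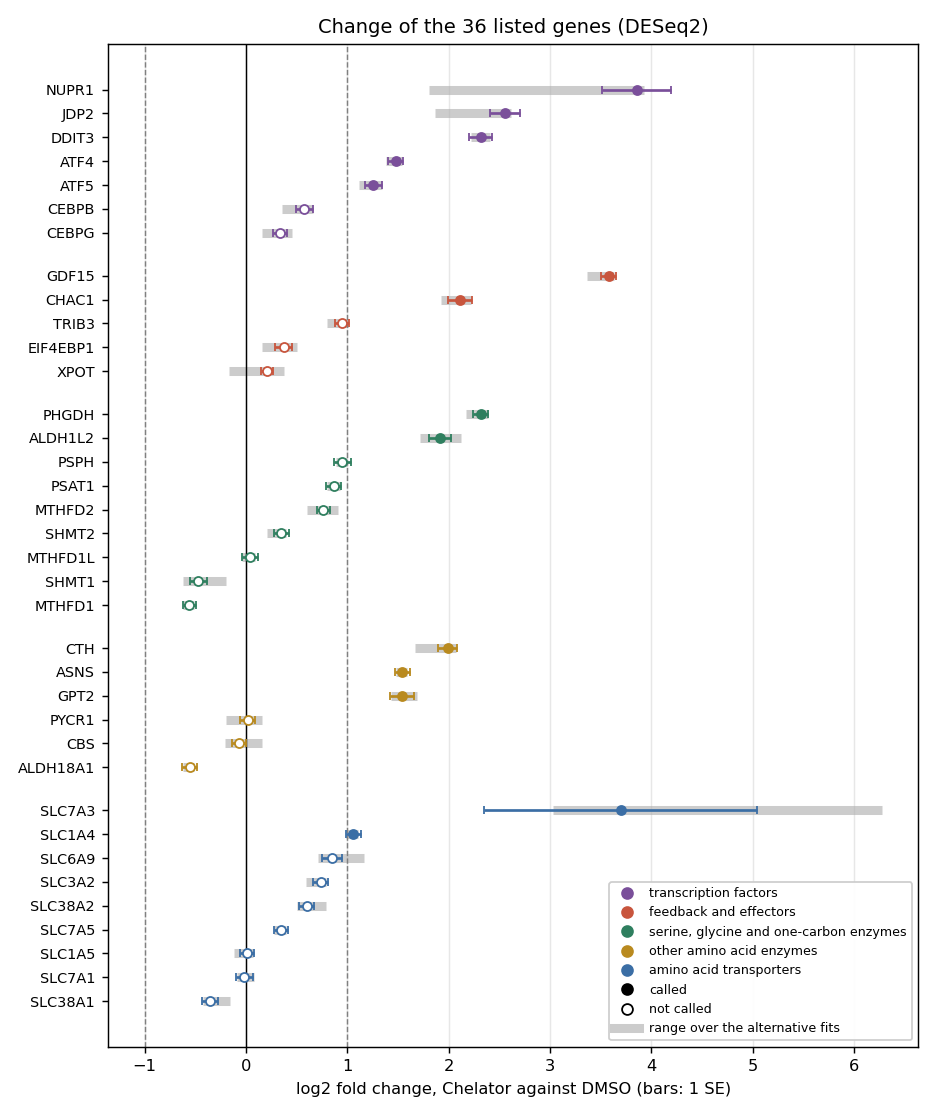
The log2 fold change of Chelator against DMSO for each gene with 1 SE, filled where the gene was called, and in grey the range over 16 alternative fits. Genes are grouped by role, and dashed lines mark log2 fold changes of -1 and 1. The grey ranges of NUPR1, JDP2 and SLC7A3 are wide, and those of most other genes are narrow.

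Among the feedback and effector genes 5 of 5 rose and 2 were called, GDF15 and CHAC1. GDF15 (chr19:18374731-18389176), a secreted growth factor of the TGF-beta family that is released by stressed cells and curbs appetite, had the largest change of the well-measured genes. It was at 16.3, 17.6 and 16.0 TPM in DMSO and 198, 204 and 206 TPM in Chelator. The 3 Chelator libraries lay close together far above the controls, and the log2 fold change was 3.58 ± 0.071 (SE), with an adjusted p too small for the software to represent. CHAC1 (chr15:40952962-40956512), an enzyme that degrades glutathione and carries the motif printed above, was at 2.92, 3.54 and 2.61 TPM in DMSO and 12.4, 13.6 and 13.9 TPM in Chelator, with a log2 fold change of 2.11 ± 0.12 (SE, adjusted p = 3.83e-68). TRIB3, a pseudokinase that binds ATF4 and dampens it, missed the fold threshold at 0.95 ± 0.071 (SE, adjusted p = 1.73e-38). The translation repressor EIF4EBP1, which restrains cap-dependent initiation, had a log2 fold change of 0.37 ± 0.083 (SE, adjusted p = 3.68e-05), and no longer passed at 0.16 after GC content and length trends were removed. XPOT exports tRNA from the nucleus, and its rise of 0.21 ± 0.063 (SE, adjusted p = 0.00323) on the log2 scale turned to -0.17 (adjusted p = 0.0395) when transcript length was left out of the fit.

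Transcripts of the enzymes for all 3 steps of serine synthesis rose, and the making of serine itself was not measured. PHGDH (chr1:119648411-119744218), the first enzyme of the pathway from glycolysis to serine, was at 33.1, 44.3 and 35.8 TPM in DMSO and 187, 186 and 198 TPM in Chelator. Its log2 fold change was 2.32 ± 0.076 (SE, adjusted p = 8.76e-200). DMSO replicate 2 was the highest control and still lay far below the lowest Chelator library. PSAT1 and PSPH, the steps after it, rose by less, with log2 fold changes of 0.87 ± 0.071 (SE, adjusted p = 4.25e-32) and 0.95 ± 0.085 (SE, adjusted p = 1.01e-27), so neither was called.

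Of the folate enzymes that follow on serine, 3 of 4 mitochondrial ones rose and both cytosolic ones fell. In mitochondria, ALDH1L2 (chr12:105019784-105107643), which oxidizes formyl-tetrahydrofolate and yields NADPH, was called. It measured 1.82, 1.85 and 1.53 TPM in DMSO and 7.01, 6.28 and 6.71 TPM in Chelator, and its log2 fold change was 1.92 ± 0.11 (SE, adjusted p = 7.86e-67). MTHFD2 and SHMT2, the mitochondrial dehydrogenase and the serine hydroxymethyltransferase, rose with log2 fold changes of 0.77 ± 0.066 (SE, adjusted p = 1.07e-29) and 0.35 ± 0.077 (SE, adjusted p = 3.03e-05). MTHFD1L, the mitochondrial formate-releasing enzyme that carries the motif, did not pass at 0.037 ± 0.080 (SE, adjusted p = 0.773). The cytosolic counterparts are SHMT1 and MTHFD1. SHMT1 had a log2 fold change of -0.47 ± 0.085 (SE, adjusted p = 2.38e-07) and MTHFD1 one of -0.56 ± 0.068 (SE, adjusted p = 7.86e-15). When transcript length was left out of the fit, SHMT1 was at only -0.19, while MTHFD1 was at -0.60. The effective length of SHMT1 transcripts averaged 997 bases in DMSO and 1220 in Chelator, and ratios of TPM to SHMT1 rest on these lengths. The ratio of SHMT2 to SHMT1 TPM was 5.93, 5.37 and 6.12 in DMSO and 10.0, 9.84 and 11.0 in Chelator. For MTHFD2 to MTHFD1 the ratio was 1.40, 1.45 and 1.38 in DMSO and 3.47, 3.50 and 3.63 in Chelator, so the mitochondrial share of each pair was higher in every Chelator library. With 3 libraries against 3, the exact two-sided permutation test gives p = 0.10 for each of the 4 ratios computed (Benjamini-Hochberg adjusted p = 0.10), which is the smallest p this design allows.

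**Figure D3:**
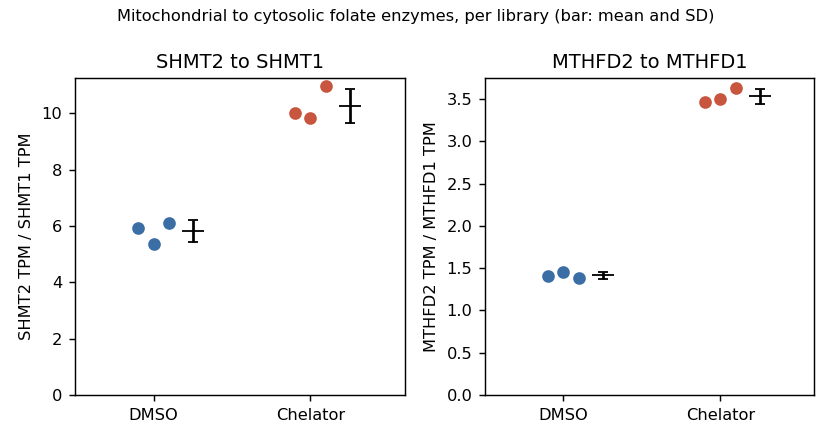
TPM of SHMT2 divided by that of SHMT1, and of MTHFD2 divided by that of MTHFD1, in each library, with the mean and SD of 3 libraries per group beside the points and both axes starting at 0. SHMT2 to SHMT1 went from a mean of 5.81 to 10.3, MTHFD2 to MTHFD1 from 1.41 to 3.53, and the groups do not overlap.

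Of the 6 other amino acid enzymes, 3 were called higher, 1 fell and 2 did not pass. ASNS, which makes asparagine and is the textbook ATF4 target, was at 124, 136 and 114 TPM in DMSO and 389.6, 363 and 360.3 TPM in Chelator. It rose by 1.54 ± 0.077 (SE, adjusted p = 4.85e-87) on the log2 scale. One of its promoter windows carries TGATGAAA, as printed above. ASNS lies at chr7:97851677-97872542 on the minus strand, and an unnamed lncRNA, ENSG00000284707, overlaps it on the same strand and shares 47.0% of its 31-base sequences. That lncRNA was given 1853 to 2143 counts in DMSO and 3022 to 3511 in Chelator, against 12119 to 51932 for ASNS, so its counts were the smaller in every library, and the split of reads between them is uncertain. CTH (chr1:70411218-70439851), which releases cysteine from cystathionine, was at 8.78, 10.3 and 10.5 TPM in DMSO and 39.8, 39.0 and 41.1 TPM in Chelator, with a log2 fold change of 1.99 ± 0.097 (SE, adjusted p = 4.98e-92). The enzyme one step before it, CBS, was far more abundant, between 248 and 279 TPM in all libraries, and did not pass at -0.070 ± 0.068 (SE, adjusted p = 0.469). The ratio of CTH to CBS TPM was 0.0338, 0.0369 and 0.0418 in DMSO and 0.160, 0.153 and 0.155 in Chelator. GPT2 (chr16:46884362-46931289), the mitochondrial alanine aminotransferase, was at 6.65, 10.6 and 6.88 TPM in DMSO and 24.8, 23.1 and 22.6 TPM in Chelator. Its DMSO replicate 2 stood above the other controls, no Chelator library came near it, and the log2 fold change was 1.54 ± 0.12 (SE, adjusted p = 1.06e-35).

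Neither listed gene of proline synthesis rose. ALDH18A1, which makes the proline precursor from glutamate, fell with a log2 fold change of -0.55 ± 0.073 (SE, adjusted p = 5.10e-13). PYCR1, the last step of that route and the most abundant of the listed genes in DMSO, lay between 364 and 408 TPM in all libraries, and its log2 fold change was 0.017 ± 0.074 (SE, adjusted p = 0.895).

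The 9 amino acid carriers split, with 6 rising, of which 2 were called, 1 falling and 2 that did not pass. SLC1A4 (chr2:64988477-65023865), an exchanger of alanine, serine and cysteine, was at 13.9, 15.3 and 13.5 TPM in DMSO and 31.2, 29.4 and 29.9 TPM in Chelator. Its log2 fold change of 1.06 ± 0.076 (SE, adjusted p = 1.52e-42) lies just above the threshold of 1, and the call was lost at 0.99 after centring on the mean change and in a test against a log2 fold change of 1. SLC7A3 (chrX:70925579-70931125), a cationic amino acid carrier, was at the edge of detection, with 0, 0 and 3 counts in DMSO and 27, 13 and 8 in Chelator. Per library total, its pooled counts were 14.3 times as high in Chelator, with an exact 95% interval of 4.61 to 71.9 that covers counting error only. The fit gave 3.70 ± 1.35 (SE, adjusted p = 0.0184), and the call was lost when DMSO replicate 1, DMSO replicate 2, Chelator replicate 1 or Chelator replicate 2 was left out. Under a minimum of 10 counts in 3 libraries it was not tested. The other cationic carrier, SLC7A1, did not pass at -0.014 ± 0.086 (SE, adjusted p = 0.925).

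The heavy chain SLC3A2 and its light chain SLC7A5 form the large neutral amino acid exchanger. SLC3A2 rose by 0.74 ± 0.075 (SE, adjusted p = 1.47e-21) on the log2 scale and SLC7A5 by 0.35 ± 0.074 (SE, adjusted p = 1.52e-05). The ratio of SLC3A2 to SLC7A5 TPM was 0.996, 0.844 and 0.915 in DMSO and 1.10, 1.26 and 1.27 in Chelator. SLC6A9, a glycine importer, had a log2 fold change of 0.85 ± 0.099 (SE, adjusted p = 1.27e-16). The glutamine carriers differed among themselves: SLC38A2 rose by 0.60 ± 0.076 (SE, adjusted p = 3.82e-14), SLC1A5 did not pass at 0.012 ± 0.067 (SE, adjusted p = 0.916), and SLC38A1 fell with a log2 fold change of -0.35 ± 0.079 (SE, adjusted p = 4.71e-05). SLC1A5 was among the most abundant of all listed genes, between 320.3 and 381 TPM. For the 5 genes that did not pass, an adjusted p above the threshold does not show that the level stayed the same.

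More of the scarce genes than of the abundant ones were called. Of the 13 listed genes under 20 TPM in DMSO, 10 were called, and of the 11 above 100 TPM, 2 were called, ATF4 and ASNS. Of all genes with an adjusted p in the same ranges, 10.1% of 18872 and 1.54% of 1430 were called higher. Across the 36 genes, Spearman's rho between the DMSO TPM and the log2 fold change was -0.63. Over the 10341 genes with a mean of at least 500 normalized counts it was -0.18. Both are descriptions across genes, which are not independent replicates, and the 2 axes share the DMSO libraries.

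**Figure D4:**
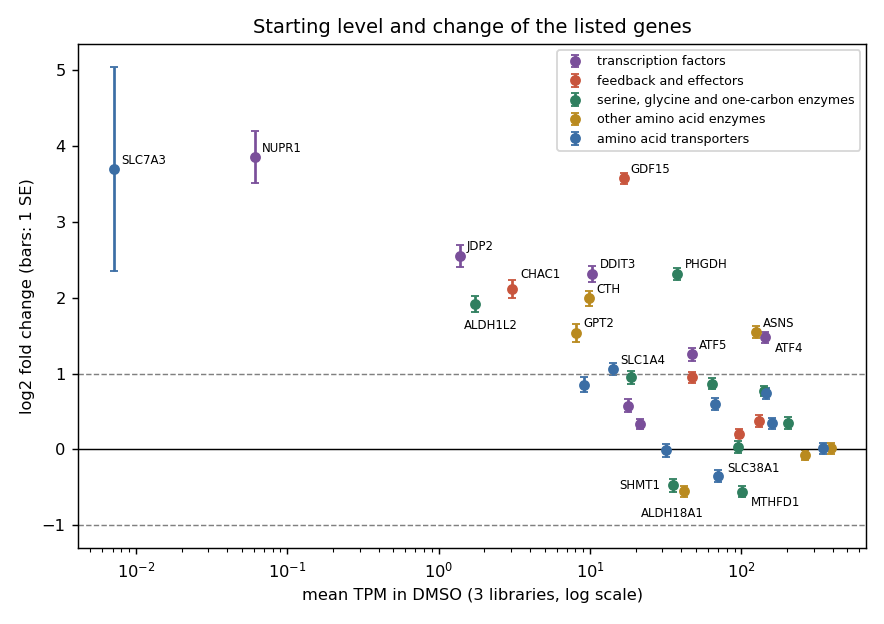
Mean TPM in DMSO on a log axis against the log2 fold change with 1 SE for the 36 genes, colored by role, with the called genes and those that fell named. Genes above 100 TPM lie between log2 fold changes of -0.56 and 1.54, and the largest changes are on the left.

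Beyond gene totals, the files give each transcript. A change of transcript use was called by edgeR's test when the adjusted p was below 0.05 and some transcript gained or lost over 5 percentage points of the TPM of its gene. Of 31 listed genes with enough counts, 7 (22.6%) were called, against 9.22% of 11938 genes: SLC3A2, SHMT2, JDP2, SLC1A5, SLC38A2, NUPR1 and XPOT. The 7 became 4 without Chelator replicate 2, 3 without Chelator replicate 3 and 14 with limma. SLC3A2, SHMT2 and SLC1A5 were called under all 9 alternatives. In SLC3A2 (adjusted p = 4.84e-08), SLC3A2-240 was 2.46, 0 and 3.48% of the gene's TPM in DMSO and 14.4, 17.9 and 18.5% in Chelator, and the leading SLC3A2-201 was 39.7, 38.3 and 38.9% of the gene's TPM in DMSO and 31.6, 30.4 and 27.7% in Chelator. Each Chelator library exceeded each control for the first and lay below each for the second.

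In SLC1A5, whose gene total did not pass, the minor SLC1A5-205 was 1.93, 1.25 and 1.42% of the gene's TPM in DMSO and 6.98, 7.65 and 7.99% in Chelator (adjusted p = 3.84e-04), and SLC1A5-203 still made up at least 88.4% in every library. In SHMT2 (adjusted p = 1.16e-05), the full-length SHMT2-201 was 55.5, 51.8 and 45.5% of the gene's TPM in DMSO and 43.0, 40.7 and 39.5% in Chelator. In SLC38A2 (adjusted p = 0.00214, called under 7 of 9 alternatives), the leading SLC38A2-201 was 78.0, 80.8 and 82.6% of the gene's TPM in DMSO and 78.7, 74.4 and 72.6% in Chelator, so the groups overlapped. SLC38A2-208 was 3.62, 2.44 and 1.92% of the gene's TPM in DMSO and 5.27, 6.56 and 10.2% in Chelator, with no overlap.

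JDP2 and NUPR1 had transcripts that were given counts only in Chelator libraries. JDP2-202 held 0, 0 and 0 counts in DMSO and 99, 157 and 143 in Chelator, and JDP2-206 held 0, 0 and 0 counts in DMSO and 77, 119 and 128 in Chelator. Taking 3 counts over the pooled controls as the limit that a count of 0 allows, JDP2-202 was at least 119-fold higher and JDP2-206 at least 96.6-fold higher per library total. The main transcript of the controls, JDP2-201, also gained reads, with 151, 128 and 130 counts in DMSO and 531, 410 and 406 in Chelator. The usage call for JDP2 (adjusted p = 3.15e-05) held under 5 of 9 alternatives.

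NUPR1 had all of its DMSO reads on the 5291-base NUPR1-201, with 20, 25 and 21 counts in DMSO and 48, 70 and 84 in Chelator. The 550-base NUPR1-202 held 0, 0 and 0 counts in DMSO and 20, 23 and 25 in Chelator, at least 20.3-fold higher by the same limit. Because NUPR1-202 is short, these few reads made up 85.7, 81.6 and 78.9% of the gene's TPM in Chelator, and the call (adjusted p = 0.0293) was lost under all 5 alternatives that could test the gene. In XPOT, XPOT-201 went from 75.8, 75.6 and 76.4% of the gene's TPM in DMSO to 59.7, 56.0 and 55.2% in Chelator, and the shorter XPOT-202 was 17.4, 15.3 and 15.2% of the gene's TPM in DMSO and 24.9, 27.6 and 25.3% in Chelator (adjusted p = 0.0447, called under 3 of 9 alternatives). These assignments of reads to transcripts are salmon's estimates and not counts of unique reads.

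**Figure D5:**
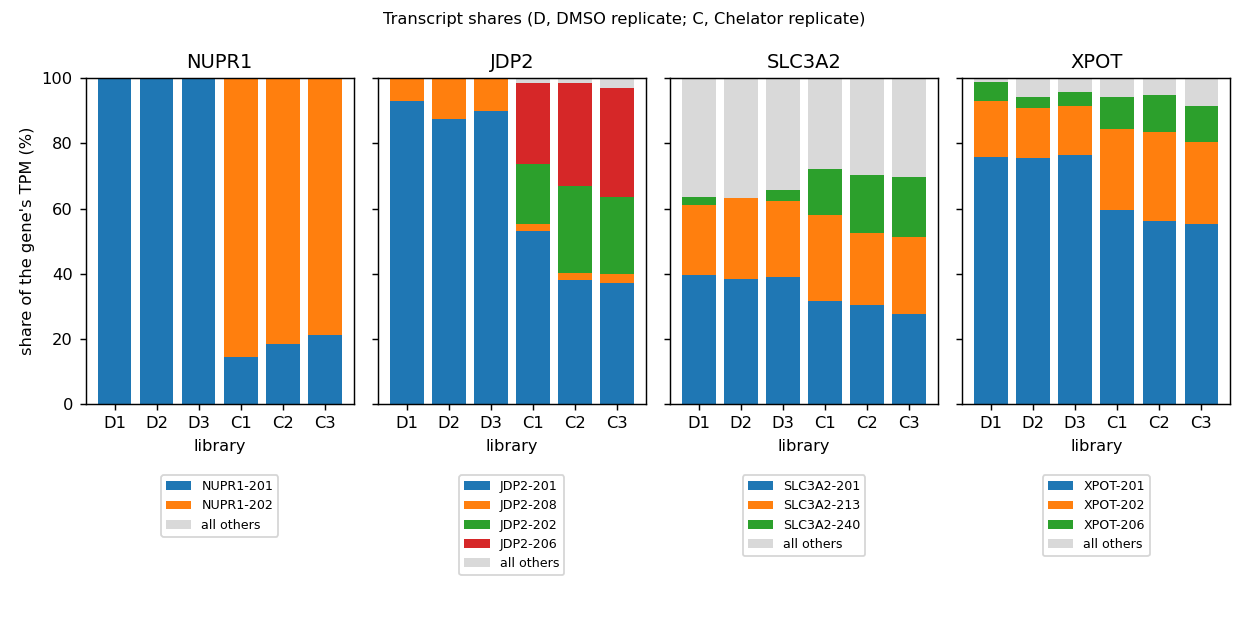
Share of each gene's TPM, in percent, taken by its main transcripts in each library, for NUPR1, JDP2, SLC3A2 and XPOT (D, DMSO replicate; C, Chelator replicate), with all other transcripts in grey. NUPR1-202, JDP2-202 and JDP2-206 appear only in the Chelator bars, and XPOT-201 takes a smaller share in each of them.

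Lists of the pathway's other genes place the 36 in context. Of 28 other stress response genes, 21 rose, 2 fell and 5 did not pass, and 9 were called higher, with a median log2 fold change of 0.88. Of all genes 19.5% rose, 18.3% fell and 8.18% were called higher. The 6 with the largest changes among the 9 called were ATF3, a repressor and partner of ATF4 (2.57 ± 0.12), the secreted factors INHBE (2.42 ± 0.12) and ADM2 (2.23 ± 0.10), the mTORC1 inhibitor DDIT4 (2.32 ± 0.074), the eIF2alpha phosphatase subunit PPP1R15A (1.73 ± 0.079), and the leucine sensor SESN2 (1.70 ± 0.077, all log2 fold changes with SE). DDIT4 reached 505, 511 and 523 TPM in Chelator, from 102, 104 and 95.9 TPM in DMSO. Among the 4 eIF2alpha kinases none was called, 1 rose and 2 fell at an adjusted p under 0.05, and their median was -0.24.

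Carriers and enzymes of amino acid and folate metabolism outside the 36 were split in direction. Of 15 other carriers with a test, 4 rose, 7 fell and 4 did not pass, with a median log2 fold change of -0.35. A single carrier was called in each direction (6.67% each), against 8.18% of all genes higher and 2.60% lower, and the 26.7% that rose and 46.7% that fell stand against 19.5% and 18.3% of all genes. SLC43A2, a neutral amino acid carrier, was called higher at 1.00 ± 0.085 (SE, adjusted p = 1.78e-30), at the threshold of 1. That call was lost in 7 alternatives, at 0.89 to 1.00, among them the fits without Chelator replicate 1 (0.97) or DMSO replicate 3 (0.96). SLC25A32, which carries folate into mitochondria, was called lower at -1.13 ± 0.075 (SE, adjusted p = 5.17e-49), and was at -0.87 on protein-coding transcripts only, past no fold threshold. Of 21 other enzymes, 4 rose, 8 fell and 9 did not pass, with a median of -0.055. The 19.0% that rose and the 9.52% called higher are near the shares of all genes, 19.5% and 8.18%, while 38.1% fell against 18.3% of all genes. Those called, both higher, were ASS1, which makes argininosuccinate for arginine, at 1.33, 1.09 and 0.982 TPM in DMSO and 8.94, 9.07 and 8.32 TPM in Chelator and a log2 fold change of 2.92 ± 0.17 (SE, adjusted p = 4.15e-64), and PRODH, which breaks down proline, at 2.35 ± 0.84 (SE, adjusted p = 0.0157) but under 0.2 TPM in every library, with 4, 12 and 2 counts in DMSO and 15, 16 and 27 in Chelator. The PRODH call was lost without DMSO replicate 1, DMSO replicate 3, Chelator replicate 2 or Chelator replicate 3, and at 1.51 without transcript length in the fit.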

How the data were processed

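The 6 polyA RNA libraries of K562 cells (3 DMSO, 3 Chelator) were grouped by their titles. The 36 listed genes, the lists of other pathway genes and the markers were chosen with earlier results of these data known. The authors quantified transcripts with Salmon (1.10.2) and deposited, per transcript and library, estimated counts, TPM, length and effective length. Their processing notes name hg38, STAR (2.7.11b) and DESeq2. The salmon index, bias options and strand setting are not given in the sources used here.

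Transcript IDs were matched to GENCODE release 44. The 433 unmatched transcripts of 252045 held 0.139 to 0.150% of counts and were left out. Estimated counts were summed per gene and rounded, and TPM was summed. DESeq2 (1.42.0; median-ratio size factors, average effective length as offset, total count above 10, Wald test, Benjamini-Hochberg adjustment) was fitted to all 6 libraries. Transcript usage was tested with edgeR (4.0.16) diffSpliceDGE on transcripts reaching 10 counts in 3 or more libraries, with Simes p-values per gene. Libraries held 78615500 to 101094957 counts, and intervals and limits of 3 counts cover counting error only. Shared sequence was counted as 31-base words on both strands of the transcripts. Values in every library are given for called listed genes and for ATF4 and DDIT3, other listed genes by fold change, and other pathway genes where called, at most 6 per list. Values of MARS1, WARS1 and IARS1, which were not called, are given as exceptions chosen after their values were seen. Scripts were tested on simulated data. Other size factors, tests, filters, transcript sets and left-out libraries were tried as alternatives. The number of replicates limits what the tests can show, and p-values cover the spread between these cultures.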

Additional observations from a re-analysis of the deposited data

How the results depend on the processing

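Of 575 values of the listed genes under 16 alternative fits, 525 kept their direction and side of the adjusted p threshold, 27 no longer passed it, 2 passed it anew and 21 changed sign. Except for XPOT, which turned to -0.17 without the length offset, the sign changes were in genes that did not pass in the reported fit. Past the threshold with the changed sign were XPOT (adjusted p = 0.0395, DESeq2), PYCR1 after removal of GC content and length trends (adjusted p = 0.0292) and CBS on protein-coding transcripts (adjusted p = 0.00467). MTHFD1L was -0.030 after centring on the mean log2 change and -0.0027 after removal of GC content and length trends, PYCR1 -0.051 and -0.19, and SLC1A5 -0.055 and -0.11, with -0.012 without the length offset. CBS was 0.062 without the offset and 0.16 on protein-coding transcripts only. SLC7A1 was 0.029 with TMM size factors and 0.029 with edgeR's quasi-likelihood test, 0.038 on protein-coding transcripts and 0.075 after removal of the trends. Leaving out 1 library gave -0.035 to 0.083 for MTHFD1L, -0.029 to 0.058 for PYCR1, -0.084 to 0.045 for SLC7A1 and -0.024 to 0.057 for SLC1A5. The cause of these changes was not tested.

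Between 13 and 16 listed genes were called higher in every alternative but the Wald test against a log2 fold change of 1, which called 11 (without ATF5, SLC1A4 and SLC7A3). Centring lost SLC1A4 and a minimum of 10 counts in 3 libraries left SLC7A3 untested. SLC6A9 was gained without the offset, and SLC6A9 and TRIB3 on protein-coding transcripts. Under the test against 1, 674 genes were called in all, 615 higher and 59 lower, and of the listed genes 11 higher and 0 lower passed. On protein-coding transcripts 293 genes were called lower, against 639. The median log2 fold change of the listed genes was 0.74 after centring, 0.91 on protein-coding transcripts and 0.77 to 0.83 without 1 library. Other pathway genes called lower numbered 1, 2 after centring or removal of the trends, 0 on protein-coding transcripts or under the test against 1, and 1 to 2 without 1 library (2 without Chelator replicate 1). Usage calls among the listed genes numbered 7, 11 with 10 counts required in all 6 libraries, 14 with limma, and 3 to 8 without 1 library (4 without Chelator replicate 2, 3 without Chelator replicate 3). With TGATGCAA alone, 6 genes had a match. Of the calls in all genes 75.9% were higher, and 70.2% to 83.6% under the other scalings and transcript sets.

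The replicate numbers showed little sign of pairing the samples, though 3 libraries per group cannot exclude it. Same-numbered libraries had correlations of -0.018, 0.085 and 0.036 between their deviations from the group means, and not every library correlated best with its own number. A fit with the replicate number as a block called 14 listed genes higher, the same 14, and 5 for usage. SLC7A3 and NUPR1 have too few counts for firm folds.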

Other observations

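Among the other stress response genes are 11 cytosolic aminoacyl-tRNA synthetases, grouped here after their values were seen. None was called, 7 rose, 2 fell and 2 did not pass at an adjusted p under 0.05 (DESeq2 Wald test), beside 8.18% called higher, 19.5% that rose and 18.3% that fell among all genes. MARS1 had a log2 fold change of 0.97 ± 0.11 (SE), but 0.17 when transcript length was left out of the fit. WARS1 had 0.95 ± 0.074, and 1.08 in that fit, and was at 269, 333 and 285 TPM in DMSO and 612, 559 and 573 TPM in Chelator. IARS1 fell by 0.31 ± 0.078 on the log2 scale. MARS1 shares sequence with DDIT3 on the opposite strand, so part of its reads is uncertain.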
